A study of Mus musculus with 10 samples.

Results

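The 8 genes described here are those of the CXCR2 axis, which draws neutrophils into tissue, and of granulocyte colony-stimulating factor (G-CSF), the cytokine that drives neutrophil production. They are the chemokine genes Cxcl1, Cxcl2, Cxcl3, Cxcl5 and Ppbp, the receptor gene Cxcr2, the G-CSF gene Csf3 and its receptor gene Csf3r. They were chosen by name, and each was measured by 1 probe, so 8 of 19938 measured genes are members. Total RNA was profiled on 10 whole-transcript arrays, each from a subcutaneous tumor of MC38, a mouse colon carcinoma line, in a C57BL/6 mouse. Tumors of about 40 mm2 received an injection into the tumor, in 5 mice of CpG1826 (50 µg, carried in 50 µL of PBS; CpG1826 mice 50, 58, 183, 189 and 595), and in 5 mice of PBS (PBS mice 26, 29, 482, 592 and 661). CpG1826 is an oligodeoxynucleotide that activates the endosomal DNA sensor TLR9. Tumors were frozen 6 h after injection. The labels describe the CpG1826 procedure alone, and PBS tumors were taken to have had the same schedule. They give neither age nor sex, and the tumors grew under the skin, not in the colon. The comparison asked how these transcripts differed soon after a TLR9 agonist reached the tumor, and how much the CpG1826 tumors differed among themselves.

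CXCR2 is a G protein-coupled receptor on neutrophils that binds CXC chemokines carrying a glutamate-leucine-arginine motif. Cxcl1, Cxcl2 and Cxcl3 encode close paralogs made by macrophages, stromal cells, epithelium and neutrophils under inflammatory signals such as interleukin-1 and TLR ligands. Cxcl5 is made mainly by epithelium and other stromal cells, and Ppbp encodes platelet basic protein, the precursor of a chemokine stored in platelet granules. G-CSF, secreted by stromal and myeloid cells, acts through the receptor encoded by Csf3r on granulocyte precursors and mature neutrophils.

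The 5 chemokine genes lie in a cluster on chromosome 5 of the mouse. The sequences just before the start of 4 of them are shown: Cxcl1, Cxcl2 and Cxcl3, which rose, and Ppbp, which did not pass. Any link between a motif there and these changes was not tested. RefSeq promoter windows (GRCm38.p6; 250 bases before to 50 after a gene's start) were matched by symbol for 6 of the 8 genes, all but Cxcl5 and Csf3. The 130 bases before the start are printed on the plus strand, which is the coding strand of each gene, for Cxcl1 (chr5:90891115-90891244), Cxcl2 (chr5:90903769-90903898), Cxcl3 (chr5:90785971-90786100) and Ppbp (chr5:90768388-90768517). Capitals mark matches to the NF-κB consensus.
Cxcl1: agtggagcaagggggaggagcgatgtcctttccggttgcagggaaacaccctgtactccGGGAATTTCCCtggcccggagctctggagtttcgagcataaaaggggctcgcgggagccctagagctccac
Cxcl2: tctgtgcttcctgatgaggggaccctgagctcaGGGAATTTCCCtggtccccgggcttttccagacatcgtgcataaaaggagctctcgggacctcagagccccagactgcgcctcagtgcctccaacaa
Cxcl3: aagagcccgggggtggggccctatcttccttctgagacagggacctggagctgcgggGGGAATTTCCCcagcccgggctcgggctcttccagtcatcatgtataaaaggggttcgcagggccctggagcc
Ppbp: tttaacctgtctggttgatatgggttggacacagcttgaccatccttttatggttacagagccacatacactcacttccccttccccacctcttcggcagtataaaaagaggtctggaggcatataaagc

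Both strands of each window were searched for the NF-κB consensus, whose letters overlap in the matches found on the 2 strands. Cxcl1 (from base -71 before the start), Cxcl2 (from -97) and Cxcl3 (from -73) each held the same 10 letters, GGGAATTTCC. The consensus was present in 8.46% of all 32851 promoter windows, and the exact letters GGGAATTTCC in 29 windows (0.0883%). The exact letters were picked because members held them, so their low share is no test of enrichment. Cxcl1, Cxcl2 and Cxcl3 are close paralogs in one cluster, so their matches are not independent. Over the 250 bases before the start, the longest run shared by Cxcl1 and Cxcl2 was 14 bases (GGGAATTTCCCTGG), and that shared by Cxcl3 with either gene was 11 bases (GGGAATTTCCC). Each of these runs covers the motif. Csf3r held the consensus once, on the opposite strand from base -129. Its letters, as read on the window's own strand, are GGAAGGTCCC. The windows of Ppbp, which did not pass, and of Cxcr2, which rose, held no match. TGANTCA, the letters of AP-1 sites, occurred in the Ppbp window, from base -204 (7.81% of windows, both strands). TATAAA occurred from base -30 in Cxcl3 and in Ppbp (13.6% of windows, both strands), and again from base -8 in Ppbp. A match shows letters only, and no binding was measured.

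In CpG1826 tumors the transcripts of 3 CXCR2 ligands and of both receptors were higher, while Cxcl5, Ppbp and Csf3 did not pass the test. In the limma fit over all genes (CpG1826 minus PBS, Benjamini-Hochberg adjusted p under 0.05), 5 of the 8 genes rose and 0 fell. Of all 19938 genes, 3.56% rose and 1.1% fell in this test, 4.66% in all. The values of the groups did not overlap for Cxcl2, Cxcl3, Cxcr2 and Csf3r, 4 of the 8 genes, against 4.35% of all genes that lay wholly higher in CpG1826. Across all genes the log2 fold change had a median of -0.02. The median log2 value of an array was 6.47 to 6.53. In whole tumor RNA, more cells of a type and more RNA per cell cannot be told apart.

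**Figure D1:**
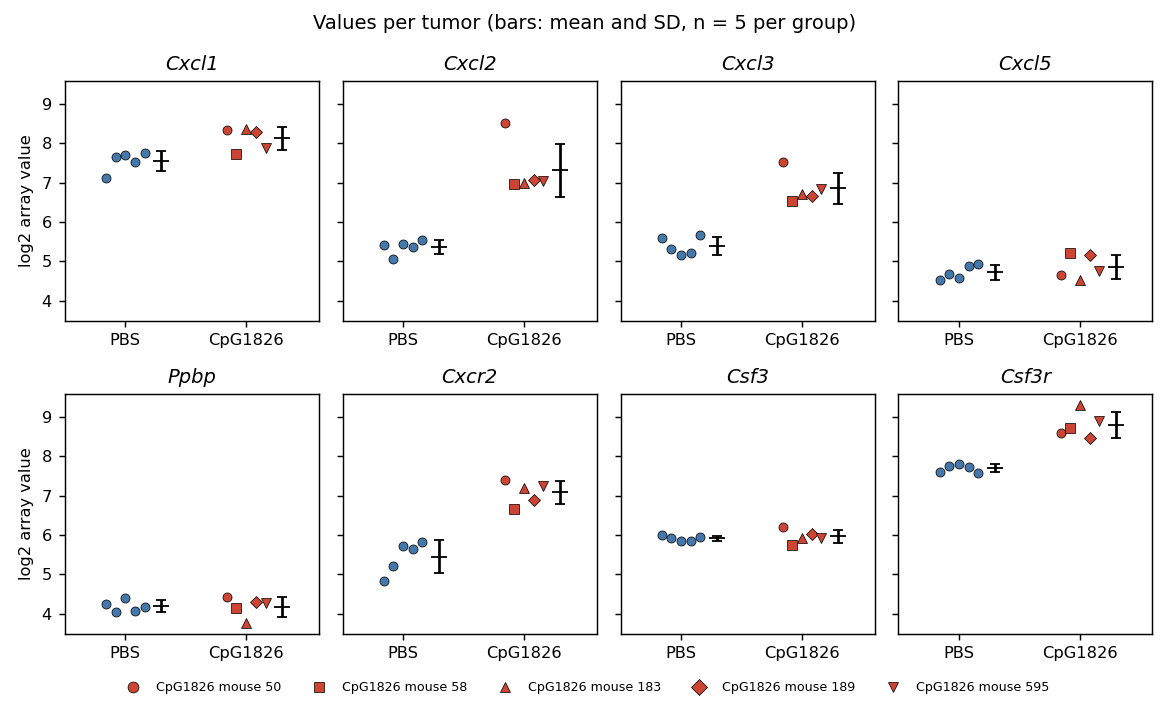
Log2 array value of each gene (vertical axis) in each tumor, PBS in blue and CpG1826 in red with 1 symbol per CpG1826 mouse; bars give the group mean and SD (n = 5). Cxcl2, Cxcl3, Cxcr2 and Csf3r were higher in every CpG1826 tumor than in any PBS tumor, and mouse 50 lies apart for Cxcl2 at 8.51.

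Cxcl2, which encodes the neutrophil attractant also known as MIP-2, had the largest fold estimate of the 8 genes. Its log2 value was 5.42, 5.06, 5.43, 5.37 and 5.55 in PBS mice 26, 29, 482, 592 and 661. In CpG1826 mice 50, 58, 183, 189 and 595 it was 8.51, 6.96, 6.99, 7.06 and 7.04. The lowest CpG1826 tumor thus stood above the highest PBS tumor, and 4 of the CpG1826 tumors lay within a narrow band below mouse 50. Cxcl2 rose 3.84-fold (95% confidence interval 2.65 to 5.57; log2 fold change 1.94 ± 0.25, SE; n = 5 per group; limma adjusted p = 0.000348). Without mouse 50 the rise was 3.12-fold, and the limma adjusted p was 1.85e-06.

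Cxcl3 is the third of the close paralogs. Its log2 value was 5.59, 5.31, 5.15, 5.20 and 5.68 in the PBS tumors (mice in the order above) and 7.53, 6.52, 6.71, 6.65 and 6.84 in the CpG1826 tumors. The groups did not overlap, and mouse 50 was again the highest. Cxcl3 rose 2.76-fold (2.14 to 3.56; log2 fold change 1.47 ± 0.17, SE; limma adjusted p = 0.000154).

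Cxcl1, which encodes the ligand known as KC, rose least of the 3 and its call was fragile. Its log2 value was 7.11, 7.64, 7.71, 7.53 and 7.75 in PBS tumors and 8.35, 7.72, 8.36, 8.30 and 7.89 in CpG1826 tumors. Mouse 58 of the CpG1826 group lay below PBS mouse 661, so 4 of 5 CpG1826 tumors stood above every PBS tumor. The fold was 1.49 (1.19 to 1.86; log2 fold change 0.57 ± 0.15, SE; limma adjusted p = 0.0422). The call was lost in 7 of 10 fits that left out 1 mouse: without PBS mouse 26, 29, 482 or 592 or without CpG1826 mouse 50, 183 or 189 the limma adjusted p lay between 0.0571 and 0.109, at log2 fold changes of 0.47 to 0.62. After a further quantile normalization the limma adjusted p was 0.0510.

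Within single tumors the ligands changed unequally. The log2 value of Cxcl2 minus that of Cxcl1 ran from -2.58 to -1.69 in PBS tumors and from -1.37 to 0.16 in CpG1826 tumors, without overlap. For Cxcl3 minus Cxcl1 the ranges were -2.56 to -1.52 and -1.66 to -0.82, which overlapped. For Cxcl3 minus Cxcl2 they were -0.28 to 0.25 and -0.97 to -0.20, also overlapping. Such differences between probes show unequal change, not which transcript was more abundant. Because the 3 genes are close paralogs and probe sequences were not used here, the share of signal that their probes might take from one another was not tested.

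Cxcl5 and Ppbp did not pass. Cxcl5 was at 4.52, 4.67, 4.56, 4.89 and 4.92 in PBS tumors and at 4.65, 5.20, 4.53, 5.15 and 4.74 in CpG1826 tumors. The groups overlapped, with CpG1826 mice 58 and 189 above every PBS tumor and mouse 183 near the lowest. The ratio of CpG1826 to PBS was 1.10 (0.901 to 1.35; limma adjusted p = 0.692). Ppbp was at 4.25, 4.04, 4.41, 4.06 and 4.18 in PBS tumors and at 4.42, 4.14, 3.76, 4.29 and 4.27 in CpG1826 tumors. CpG1826 mouse 183 was the lowest and mouse 50 the highest of all 10 tumors, a range that enclosed the PBS values. Its ratio was 0.993 (0.836 to 1.18; limma adjusted p = 0.984). The intervals thus leave room for a rise of Cxcl5 by up to 1.35-fold and of Ppbp by up to 1.18-fold on the array's scale. Whether either probe was above background is not stated, as no detection calls were used. Platelet and megakaryocyte markers, 7 of 11 of them measured, gave 0 calls in either direction and 0 at an unadjusted limma p under 0.05. Pf4, the other platelet chemokine, had a log2 fold change of 0.11 ± 0.15 (SE) and Treml1, a receptor of platelet granules, -0.22 ± 0.11.

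Cxcr2, the receptor of these ligands, rose in all CpG1826 tumors. Its log2 value was 4.83, 5.22, 5.72, 5.66 and 5.82 in PBS tumors and 7.41, 6.67, 7.19, 6.90 and 7.25 in CpG1826 tumors. The groups stood apart, with PBS mouse 26 lowest and CpG1826 mouse 50 highest. The rise was 3.11-fold (2.36 to 4.10; log2 fold change 1.64 ± 0.19, SE; limma adjusted p = 0.000127). Cxcr1, the related receptor, did not pass (0.02 ± 0.08, limma adjusted p = 0.934).

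Csf3, which encodes G-CSF itself, did not pass although its receptor gene rose. Csf3 was at 6.00, 5.94, 5.85, 5.85 and 5.94 in PBS tumors and at 6.22, 5.76, 5.93, 6.02 and 5.91 in CpG1826 tumors. The CpG1826 tumors lay on both sides of the PBS tumors, with mouse 50 highest and mouse 58 lowest. The ratio was 1.04 (0.916 to 1.17; limma adjusted p = 0.835), so the interval leaves room for a rise of up to 1.17-fold on this scale. No detection calls were used, so whether Csf3 was above background is not stated, and folds of dim probes can be compressed.

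Csf3r was at 7.62, 7.77, 7.81, 7.74 and 7.57 in PBS tumors and at 8.59, 8.72, 9.31, 8.47 and 8.91 in CpG1826 tumors. The groups stood well apart, and here mouse 183 and not mouse 50 was the highest. Csf3r rose 2.14-fold (1.76 to 2.60; log2 fold change 1.10 ± 0.13, SE; limma adjusted p = 0.000200). Within single tumors Csf3r minus Csf3 ran from 1.62 to 1.96 in PBS and from 2.37 to 3.38 in CpG1826 tumors, without overlap. Csf3r minus Cxcr2, the difference of the receptors, ran from 1.75 to 2.79 and from 1.18 to 2.11, which overlapped.

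**Figure D2:**
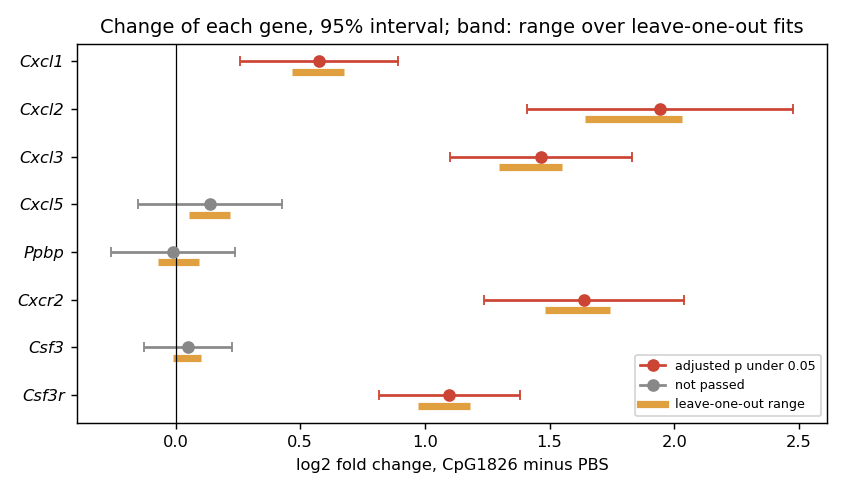
Log2 fold change of each gene, CpG1826 minus PBS (horizontal axis), with 95% confidence intervals from limma; the orange band gives the lowest and highest value over the 10 fits that leave out 1 mouse. The intervals of Cxcl5, Ppbp and Csf3 include 0, and Cxcl2 has the largest estimate at 1.94.

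Variation between CpG1826 tumors differed from gene to gene. The SD of the 5 CpG1826 values was 0.67 for Cxcl2, 0.40 for Cxcl3, 0.33 for Csf3r, 0.30 for Cxcl1, Cxcl5 and Cxcr2, 0.25 for Ppbp and 0.17 for Csf3 (log2 units). In PBS tumors the SD was 0.18 for Cxcl2, 0.24 for Cxcl3, 0.10 for Csf3r, 0.26 for Cxcl1, 0.19 for Cxcl5, 0.42 for Cxcr2, 0.15 for Ppbp and 0.07 for Csf3. Cxcr2 was the gene of the 8 whose SD was smaller in CpG1826 than in PBS tumors. Among all genes the SD of Cxcl2 stood at percentile 99.8 in CpG1826 and 78.2 in PBS tumors, and that of Csf3r at percentiles 96.7 and 35.2. Single tumors weighed on both, to unlike degrees. Without CpG1826 mouse 50 the CpG1826 SD of Cxcl2 was 0.046, below its PBS SD of 0.18. Without CpG1826 mouse 183 that of Csf3r was 0.19, still above its PBS SD of 0.10.

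In a limma fit to absolute deviations from the group mean, 0 of the 19938 genes (0%) passed an adjusted p under 0.05. At an unadjusted p under 0.05, 5.62% of genes were wider and 2.42% narrower in CpG1826 tumors. Cxcl2 and Csf3r were among the wider genes before adjustment (limma adjusted p = 0.617 for each). The mean absolute deviation of Cxcl2 was larger in CpG1826 than in PBS tumors by 0.40 in log2 units, and without CpG1826 mouse 50 the difference was -0.093, so its direction turned. For Csf3r the difference was 0.18, and 0.067 without CpG1826 mouse 183. A miss at this number of tumors does not show equal spread. Without CpG1826 mouse 183, 10 genes passed, and none of the 8 genes was among them.

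The high tumors were not the same for every gene. Mouse 50 was highest of the CpG1826 tumors for Cxcl2, Cxcl3, Cxcr2, Csf3 and Ppbp, mouse 183 for Cxcl1 and Csf3r, and mouse 58 for Cxcl5. Over all 10 tumors, deviations from the group mean correlated at r = 0.86 between Cxcl2 and Cxcl3 and at r = 0.70 between Cxcl1 and Cxcr2. Those of Csf3, which did not pass, correlated at r = 0.86 with Cxcl3 and at r = 0.77 with Cxcl2. For Cxcl2 and Csf3r the correlation was r = -0.40, and for Ppbp and Csf3r r = -0.70. These values describe 10 arrays, and CpG1826 mouse 50 has the largest deviation for Cxcl2 (1.20), Cxcl3 (0.68) and Csf3 (0.25). How far the correlations among these 3 genes rest on that tumor was not tested.

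**Figure D3:**
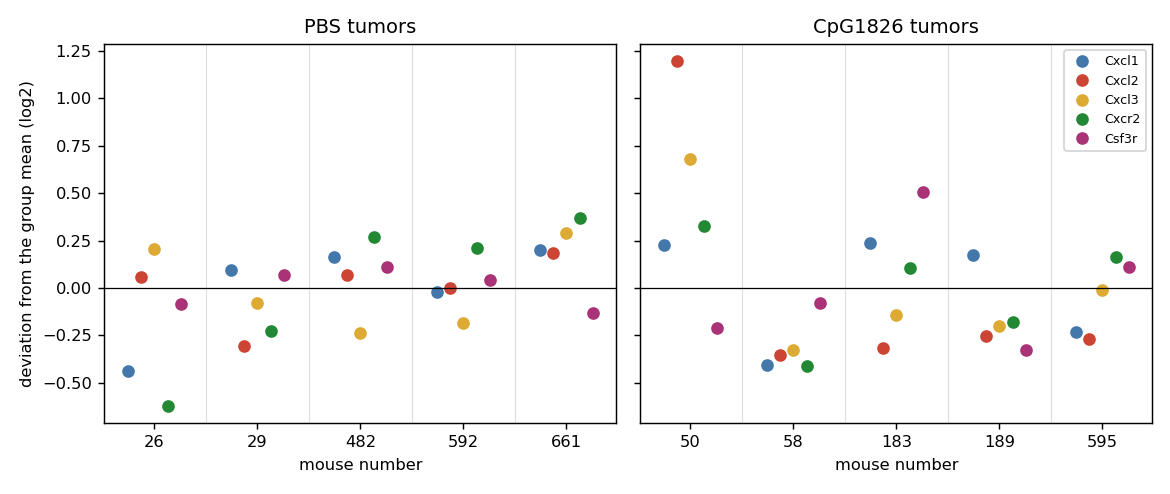
Deviation of each tumor's log2 value from its group mean (vertical axis) for the 5 genes that rose, by mouse number, PBS on the left and CpG1826 on the right. CpG1826 mouse 50 lies above its group for Cxcl2 and Cxcl3 and below it for Csf3r, and CpG1826 mouse 58 lies below its group for all 5 genes.

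Genes that mark neutrophils moved in part with Cxcr2 and Csf3r. Of 22 markers listed, 20 were measured, and 8 of these rose and 0 fell, with a median log2 fold change of 0.23 against -0.02 over all genes. S100a8, which encodes a calcium-binding protein abundant in neutrophils, was at 4.94, 5.08, 4.92, 4.71 and 5.81 in PBS tumors and at 7.85, 6.64, 7.51, 6.96 and 7.12 in CpG1826 tumors. The groups did not overlap, and the rise was 4.37-fold (3.11 to 6.13; limma adjusted p = 8.67e-05). S100a9, its partner, rose 2.74-fold (2.09 to 3.58), Hdc, histidine decarboxylase, 3.06-fold (2.48 to 3.77), and Trem1, an activating receptor of myeloid cells, 2.06-fold (1.75 to 2.42). Asprv1 rose 3.33-fold (2.53 to 4.39), Mmp8, neutrophil collagenase, 1.84-fold (1.49 to 2.28), Ifitm6 1.75-fold (1.42 to 2.16) and Retnlg 1.52-fold (1.23 to 1.88). Retnlg lost its call without PBS mouse 26, 29 or 482 and without CpG1826 mouse 183 (limma adjusted p = 0.0653 to 0.0739). S100a8, S100a9 and Asprv1 are also expressed by epidermal keratinocytes, and Hdc by mast cells.

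Apart from Mmp8, the granule genes of that list that are named here did not pass, and neither did Ly6g. Ly6g, whose product is the surface antigen used to define mouse neutrophils, was at 4.73, 4.90, 4.73, 4.60 and 4.55 in PBS tumors and at 4.75, 4.45, 4.62, 4.75 and 4.93 in CpG1826 tumors. Its log2 fold change was 0.00 ± 0.09 (SE), and the groups overlapped throughout. Camp (-0.07), Ngp (0.05) and Ltf (-0.03), which encode proteins of secondary granules, and Mpo (0.02), Elane (-0.03) and Prtn3 (0.07), of primary granules, had log2 fold changes near 0. No detection calls were used, so whether Ly6g and the granule genes were above background is not stated here. The mean log2 value of the 20 markers ran from 5.58 to 5.78 in PBS tumors and from 6.09 to 6.42 in CpG1826 tumors, without overlap. Mouse 50, the tumor with the highest Cxcl2, Cxcl3 and Cxcr2, also had the highest marker mean (6.42). Its Csf3r value (8.59), however, ranked 4 from the highest of the 5 CpG1826 tumors. The part of these markers in the rise of Cxcr2 and Csf3r was not tested beyond the covariate fit given further on.

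**Figure D4:**
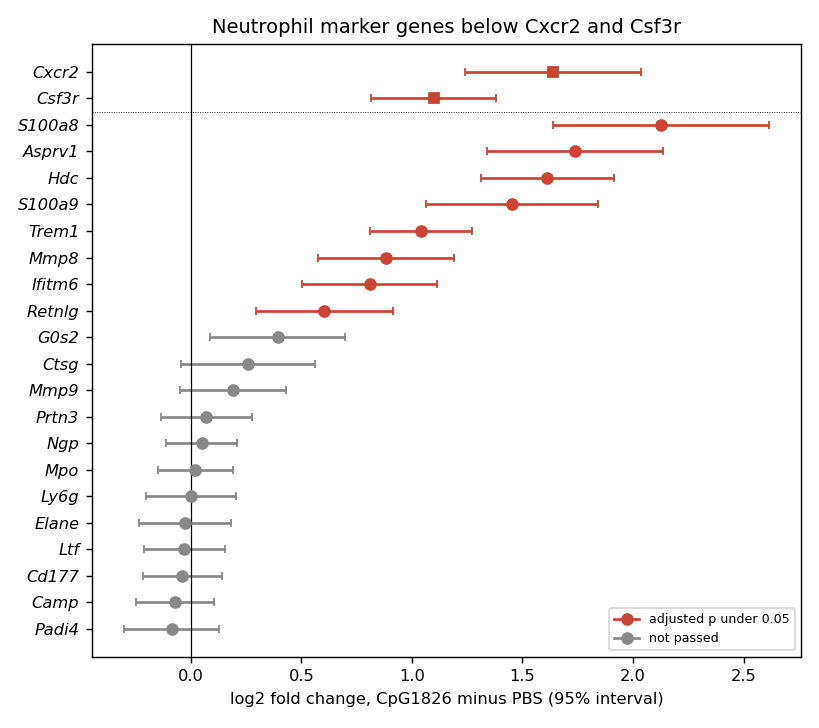
Log2 fold change, CpG1826 minus PBS, with 95% confidence intervals for Cxcr2 and Csf3r (squares, above the dotted line) and for the 20 measured neutrophil markers (circles). Red marks an adjusted p under 0.05; S100a8 has the largest change of the markers at 2.13, and Ly6g lies at 0.00.

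Markers of other cells that the tumor samples could hold differed too, among them those of skin keratinocytes, which are a source of CXCR2 ligands. Of 16 measured keratinocyte markers 12 rose and 0 fell (median log2 fold change 1.51). Krt6b, a keratin of wounded epidermis, Krt1, Krt5 and Krt14 had log2 fold changes of 3.45, 3.06, 2.95 and 2.60, while Ivl (0.17) and Trp63 (0.25) did not pass. The mean log2 value of the 16 genes ran from 5.36 to 5.87 in PBS tumors and from 6.84 to 7.74 in CpG1826 tumors, without overlap. It was highest in CpG1826 mouse 189 (7.74) and next in mouse 50 (7.47). Its part in the rise of Cxcl1, Cxcl2 and Cxcl3 was not tested beyond a fit with this mean as a covariate.

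With the keratinocyte mean as a covariate in the limma fit, Csf3r kept its call (log2 fold change 2.17, limma adjusted p = 0.00753; 0.742% of all genes were called higher in that fit). Cxcl2 (0.94), Cxcl3 (0.78), Cxcr2 (1.36) and Cxcl1 (-0.05) did not pass it. With the neutrophil marker mean as a covariate, 0 of the 8 genes passed and 0.105% of all genes were called higher. In that fit Csf3r had a log2 fold change of 1.53 (limma adjusted p = 0.114) and Cxcr2 one of 0.65. The groups do not overlap in either mean, so both fits extrapolate and their intervals are wide.

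Among 11 measured macrophage and monocyte markers 0 rose and 3 fell: Cx3cr1, the fractalkine receptor (log2 fold change -1.21), Ccr2, the receptor for CCL2 (-0.61), and Csf1r, the M-CSF receptor (-0.46). The Ccr2 call was lost in 9 of the 10 fits that left out 1 mouse and held without CpG1826 mouse 595. Of 10 endothelial markers, 0 rose and Tek, an angiopoietin receptor, fell (-0.34, limma adjusted p = 0.0488), a call that held without PBS mouse 29 or 592 and was lost without any other mouse. Without CpG1826 mouse 50, 1 endothelial marker rose. Of 10 fibroblast markers Pdpn, podoplanin, rose (0.42) and 0 fell; 2 rose without CpG1826 mouse 50, and 1 fell without PBS mouse 26. Of 8 markers of colon epithelium, listed to check the label of the tumor line, Cdh1, E-cadherin (0.63), and Epcam (0.32) rose. The Epcam call held without PBS mouse 26 or CpG1826 mouse 183 and was lost without any other mouse. The other 6 did not pass, among them Krt8 (0.12), Krt18 (-0.11), Krt19 (-0.02) and Krt20 (0.03). Which cells, carcinoma cells or keratinocytes among them, carried the 2 rises was not tested. The mean of those 8 markers ran from 5.37 to 5.55 in PBS tumors. Krt20 was at 4.32 ± 0.10 and Cdx2 at 5.58 ± 0.06 there (SD, n = 5), and with no detection calls used these values neither bear out nor oppose the label.

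Cytokines that induce the CXCR2 ligands rose in part. Of 13 measured, 5 rose and 0 fell (median log2 fold change 0.24). Il1b was at 7.57, 8.48, 8.20, 8.07 and 7.88 in PBS tumors and at 10.63, 10.23, 10.30, 10.16 and 10.29 in CpG1826 tumors. The CpG1826 tumors thus lay close together, far above PBS, and mouse 50 was again the highest. The log2 fold change was 2.82 ± 0.11 (SE) for Il1a, 2.28 ± 0.14 for Il1b, 1.15 ± 0.15 for Il6 and 0.86 ± 0.10 for Tnf, and Lif also rose (0.57). The genes of the IL-17 side did not pass: Il17a differed by -0.06 ± 0.07, Il17f by -0.11 ± 0.08, Il17c by -0.08 ± 0.09 and Il23a by -0.15 ± 0.10 (SE). Csf2, the gene of GM-CSF, did not pass either (0.11 ± 0.11). Mean log2 values in PBS tumors were 5.66 for Il17a, 5.93 for Il17f, 6.62 for Il17c, 5.08 for Il23a and 5.33 for Csf2. With no detection calls used, whether these 5 genes were above background is not stated.

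Among 11 measured receptors and relays of IL-1, IL-17 and TNF signals, Tnfrsf1b, the TNF receptor of leukocytes (1.05), and Il17ra, the common IL-17 receptor chain (0.51), rose and 0 fell. Among regulators of inflammatory promoters, 11 of 14 NF-κB and C/EBP genes rose and 0 fell (median 0.44). In every fit that left out 1 mouse fewer rose, 7 to 10, with 7 without PBS mouse 29. Tnfaip3, the NF-κB inhibitor A20 (1.31), Nfkbia, IκBα (1.01), Nfkbiz, IκBζ (0.94), and Cebpb (0.93) led this list. Other calls in it were less firm: those of Nfkb2, Nfkbie and Rel were lost in 9, 8 and 7 of the 10 fits that left out 1 mouse, and that of Cebpd in 1. Rela (0.22) and Cebpe (-0.07) did not pass.

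Of 10 genes that control the stability of such messages, 3 rose and 0 fell. Zfp36, tristetraprolin, which promotes decay of AU-rich messages, rose by 0.95 on the log2 scale, Zc3h12a, regnase-1, an endonuclease of cytokine messages, by 0.66, and Arid5a, which stabilises Il6 messages, by 0.25. The call of Arid5a was lost without PBS mouse 592 (limma adjusted p = 0.0554; without PBS mouse 26, 1 gene of the list fell).

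Downstream of the G-CSF receptor, 4 of 12 measured genes rose and 0 fell. Socs3, the feedback inhibitor of G-CSF and IL-6 signalling, was at 8.42, 8.65, 8.71, 8.57 and 8.62 in PBS tumors and at 9.91, 9.83, 10.13, 9.92 and 9.85 in CpG1826 tumors. The groups were far apart, and mouse 183, the tumor with the highest Csf3r, was also the highest here. Next for Socs3 was mouse 189 (9.92), the CpG1826 tumor with the lowest Csf3r (8.47). The log2 fold change of Socs3 was 1.34 ± 0.08 (SE), and those of Jak2, Stat3 and Stat5a were 0.64, 0.40 and 0.35. Stat5a lost its call without CpG1826 mouse 183 (limma adjusted p = 0.0581). These relays also serve other cytokine receptors, and Gfi1, a transcription factor of granulocyte precursors, did not pass (-0.01 ± 0.11, SE).

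Downstream of CXCR2, 4 of 17 measured genes rose and 1 fell, and the list's median of -0.03 was close to that of all genes. Pik3r5, a regulatory subunit of PI3-kinase gamma (1.05), the Src-family kinase gene Fgr (0.75), Rac2, a GTPase of leukocyte migration (0.69), and Vav1, a Rac activator (0.62), rose. The call of Vav1 held when PBS mouse 592 or CpG1826 mouse 50 or 189 was left out and was lost without any other mouse (limma adjusted p = 0.0519 to 0.0833). Rgs2, a regulator of G protein signalling, fell by 1.07 on the log2 scale (limma adjusted p = 0.000246). G protein subunits and arrestins did not pass, with Gnai2 at -0.02 and Arrb2 at -0.05. The number that fell was 2 or 3 without PBS mouse 661 or CpG1826 mouse 595.

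Of 10 measured adhesion genes, Vcam1 (0.55) and Icam1 (0.37), ligands for leukocyte integrins, rose, and Itga4, the integrin chain that binds VCAM-1, fell (-0.58), a call lost without PBS mouse 26, 29, 482 or 592. Sele, E-selectin, did not pass (-0.06). The median of 0.20 was 0.11 to 0.13 without PBS mouse 661 or CpG1826 mouse 183. Of 8 measured genes of other neutrophil attractants and their receptors, Ccl3, a chemokine of myeloid cells (2.64), and Ccr1 (0.69) rose and C5ar1, the C5a receptor, fell (-0.38), a call that held when PBS mouse 482 or 661 or CpG1826 mouse 595 was left out and was lost without any other mouse. Of 7 genes listed as other CXC chemokines or as chemokine receptors of any kind, 0 were called. Of these 1, the atypical receptor gene Ackr2 (0.30), was higher at an unadjusted limma p under 0.05. These included Cxcl12 (-0.12) and Cxcr4 (-0.01), the axis that retains neutrophils in bone marrow.

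**Figure D5:**
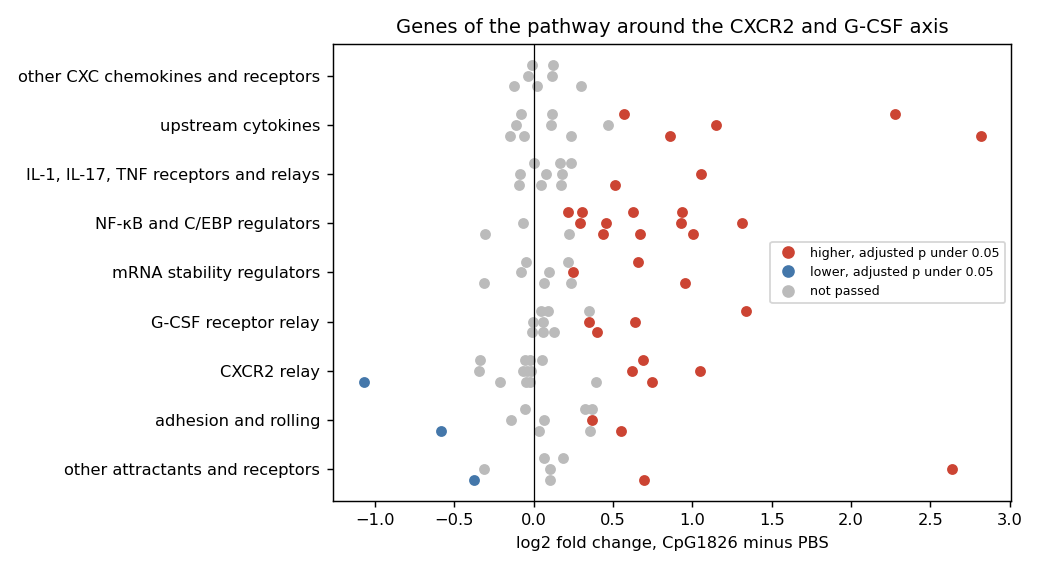
Log2 fold change, CpG1826 minus PBS (horizontal axis), of each measured gene in 9 lists around the CXCR2 and G-CSF axis (vertical axis; vertical offsets within a list only separate points). Red marks genes higher and blue genes lower at an adjusted p under 0.05. Of the 14 NF-κB and C/EBP regulators 11 are red, against 7 to 10 called higher with 1 mouse left out. The largest changes are those of Il1a at 2.82 and Ccl3 at 2.64.

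The genes whose deviations from the group means most resembled those of a member were mostly genes with no called change. Over the 10 arrays these were Map3k21, Vwa5b2 and 2310002L09Rik for Cxcl1 (r = 0.97, 0.96 and 0.96). For Cxcl2 they were Kcnj4, 4921539E11Rik and Olfr878 (r = 0.93, 0.92 and 0.91), and for Cxcl3 Ccdc85b, Gm10037 and Dlgap2 (r = 0.95, 0.92 and 0.91). For Cxcr2 they were Shb, Plk3 and Dio3 (r = 0.94, 0.94 and 0.93). Csf3r resembled Ssh3, Dennd1c and Dusp2 (r = 0.96, 0.95 and 0.95), of which Ssh3 (log2 fold change 0.48) and Dusp2, a MAP kinase phosphatase of leukocytes (1.48), rose. The call of Ssh3 held when PBS mouse 482 or CpG1826 mouse 50, 183 or 189 was left out and was lost without any other mouse. These are the highest of about as many correlations as there are genes, each over 10 arrays that share their scaling, and describe likeness only.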

How the data were processed

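The 8 genes, the gene lists and the tests were chosen with earlier results of these data known. The deposited table holds 35512 probes on a log2 scale, which was read from the values (2.03 to 14.70). Per the labels' protocols, RNA was labelled with an Affymetrix whole-transcript kit, and R 2.7.1 and limma are named in the submitters' processing notes without a role. The sources used here do not give the background correction, summarization, normalization or genome build. Folds of dim probes can be compressed, and a shift of most genes together can be lost in normalization. Probes with exactly 1 symbol in the platform's annotation (21789) were used, and the probe with the highest mean stood for each of 19938 genes. The fit over all genes used limma 3.58.1 (lmFit, eBayes; R 4.3.3), two-sided, with Benjamini-Hochberg adjustment over all genes; the procedure was tested on simulated data. Each array carries its own mouse number, taken as 1 animal, and the number of arrays limits precision; no batch label was used. Named genes were the 8 genes, up to 4 called genes per list, by size of change (or, with none called, the 2 with the highest mean), and the 3 genes most like each called member; further list members named as examples were chosen after their values were seen. Alternatives were other normalizations, filters, priors, weights, thresholds and probe choices, covariates, and leaving out each mouse.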

Additional observations from a re-analysis of the deposited data

Results flagged for a closer look

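CpG1826 mouse 50 stood apart from the other CpG1826 tumors for Cxcl2, with a log2 value of 8.51 against 6.96 to 7.06 in the other 4, a gap of 0.935 of the whole range where Dixon's critical value for 5 samples is 0.71. The same tumor stood apart for S100a9 (8.01 against 7.02 to 7.26) and for 3 genes selected above for their likeness to Cxcl2 or Cxcl3, 4921539E11Rik (4.24), Gm10037 (4.85) and Dlgap2 (6.72). CpG1826 mouse 183 stood apart for Tnfrsf1b (11.34) and CpG1826 mouse 58 for Cebpb (9.11).

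Among PBS tumors, mouse 661 was the low one for Nfkbiz (8.80), Pik3r5 (7.46), Itga4 (8.53), Vcam1 (10.91) and Dennd1c (7.51). PBS mouse 26 was low for Cebpb (7.70), Stat5a (8.12) and Vwa5b2 (5.17), and PBS mouse 592 for Asprv1 (6.20). In all, 16 of 136 groups of 5 values (68 named genes) lay past the critical value, where chance gives about 5% of groups. The genes share the same tumors, so these are not independent cases.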

How the results depend on the processing

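Cxcl2, Cxcl3, Cxcr2 and Csf3r kept their direction in every alternative that tested them. Filters, priors, thresholds and probe choices could not change it, as they leave the fold change of a gene with 1 probe as it is. Cxcl2, Cxcl3 and Cxcr2 kept their calls wherever they were tested but in the covariate fits. Csf3r lost its call with the neutrophil mean as a covariate and against a 1.5-fold minimum (log2 fold change 1.10, limma adjusted p = 0.169). It kept its call with the keratinocyte mean. Leaving out each mouse gave log2 fold changes of 1.64 to 2.03 for Cxcl2, 1.30 to 1.55 for Cxcl3, 1.48 to 1.74 for Cxcr2 and 0.97 to 1.18 for Csf3r. Cxcl1 ranged from 0.47 to 0.68 and lost its call after quantile normalization (0.57), at an adjusted p under 0.01 and against the 1.5-fold minimum (0.57 in both). Cxcl5, Ppbp and Csf3 were called in no setting. Genes below the median level include Cxcl2, Cxcl3, Cxcl5, Ppbp, Cxcr2 and Csf3, so 2 members were called higher with those left out; against the 1.5-fold minimum 3 were. With genes below the lower quartile of level left out, Cxcl5 and Ppbp were not tested.

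With the keratinocyte mean as a covariate, log2 fold changes were -0.053 for Cxcl1, 0.94 for Cxcl2, 0.78 for Cxcl3 and 1.36 for Cxcr2, and 1 member was called; Itga4 (0.10), Krt6b (-1.44), Krt14 (-0.14), Csf1r (0.17) and Epcam (-0.26) changed sign. With the neutrophil mean they were -0.47, 0.0099, 0.18 and 0.65, and 1.53 for Csf3r, and 0 members were called; Itga4 (0.30), Asprv1 (-0.016), S100a9 (-0.13) and Ccr2 (0.38) changed sign. Genes of a marker list enter its mean themselves; otherwise the cause was not tested.

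Over all genes, 710 were higher and 220 lower. The higher count was 407 at an adjusted p under 0.01, 80 against the 1.5-fold minimum, 148 with the keratinocyte and 21 with the neutrophil covariate. The lower count was 440 after quantile normalization, 338 without genes below the median level, and 64, 2, 38 and 3 in the 4 settings just named, and 121 to 209 with a mouse left out. Genes of the 9 pathway lists called higher numbered 33, and 7, 11 and 3 against the 1.5-fold minimum and with the keratinocyte and neutrophil covariates. Those called lower numbered 3; they were 6 after quantile normalization, 7 without genes below the median, 6 with a trended, robust prior, 5 with array weights, 1 at the stricter threshold, 0 in the last 3 settings, and 1 to 5 with a mouse left out. Marker list genes called higher numbered 23 (10 without genes below the median, 13 against the 1.5-fold minimum, 0 and 1 with the covariates), and lower 4 (1 at the stricter threshold, 1 against the minimum, 0 and 0 with the covariates, 2 to 3 with a mouse left out). In the fit of spread, 0 to 10 genes passed with a mouse left out. Outside the 8 genes, 8 of 44 called genes named by the rule lost their call (Tek, Epcam, C5ar1, Itga4, Ccr2, Ssh3, Arid5a and Stat5a) and 0 reversed under settings other than the covariates, the 1.5-fold minimum and the stricter threshold. No paired analysis was possible because the groups share no mouse number.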
